A study of Mus musculus with 12 samples.

Results

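Potassium channel genes were followed in the maxillary prominence of wild type C57BL/6 mouse embryos on embryonic days 10.5, 11.5, 12.5 and 14.5 (E10.5 to E14.5). Each stage had 3 libraries of polyadenylated RNA. The maxillary prominence is the facial swelling that forms the upper jaw and the palatal shelves, and it holds neural crest mesenchyme, surface epithelium, vessels, nerves and, later, muscle and bone. The members were taken by name: every gene whose symbol reads Kcn, then letters, then a number, with Kcnj8 left out, which gave 91 of the 53801 genes counted, all protein coding. RNA came from tissue of 7 littermates, and the labels do not say whether that pool served 1 library or the 3 libraries of a stage. The series design gives 3 biological replicates per stage, but no label names separate litters. The p-values therefore measure only how these libraries vary, which may be technical if the libraries of a stage share a pool. The E14.5 libraries have protocol entries of their own, and the label of E14.5 replicate 1 names 2 parts, so stage and sample set cannot be told apart in comparisons with E14.5.

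Potassium channels let potassium leave or enter cells along its gradient and so set the resting potential, end action potentials and shape calcium entry. The family falls into voltage-gated channels, channels opened by internal calcium or sodium, inward rectifiers that hold the resting potential, and leak channels with a pair of pore domains per subunit, joined by accessory subunits that have no pore. In mouse, loss of the inward rectifier Kcnj2 gives a cleft palate, and human mutations of KCNJ2, KCNH1 and KCNK9 cause syndromes with facial features.

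The start regions of 4 members are shown because they stand for the courses described below: Kcne4 and Kcnma1 were higher at every step, Kcnj2 had its maximum in mid-course, and Kcnmb2 had the largest fall over the whole course. Each is the RefSeq window (GRCm38.p6) from 250 bases before to 50 bases after a transcript start, written 5′ to 3′ with each CG dinucleotide in capitals.
Kcne4 promoter (chr1:78816661-78816960, + strand): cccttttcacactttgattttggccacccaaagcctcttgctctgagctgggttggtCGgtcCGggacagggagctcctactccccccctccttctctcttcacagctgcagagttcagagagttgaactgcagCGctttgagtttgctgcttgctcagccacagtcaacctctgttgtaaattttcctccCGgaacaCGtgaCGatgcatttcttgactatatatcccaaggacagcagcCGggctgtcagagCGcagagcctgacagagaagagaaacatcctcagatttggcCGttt
Kcnma1 promoter (chr14:24004156-24004455, - strand): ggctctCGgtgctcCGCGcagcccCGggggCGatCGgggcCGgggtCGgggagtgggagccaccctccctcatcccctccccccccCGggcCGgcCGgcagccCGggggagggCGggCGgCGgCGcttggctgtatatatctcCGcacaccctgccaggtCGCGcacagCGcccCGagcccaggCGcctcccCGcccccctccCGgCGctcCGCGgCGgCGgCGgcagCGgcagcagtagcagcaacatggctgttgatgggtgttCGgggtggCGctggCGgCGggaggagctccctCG
Kcnj2 promoter (chr11:111065914-111066213, + strand): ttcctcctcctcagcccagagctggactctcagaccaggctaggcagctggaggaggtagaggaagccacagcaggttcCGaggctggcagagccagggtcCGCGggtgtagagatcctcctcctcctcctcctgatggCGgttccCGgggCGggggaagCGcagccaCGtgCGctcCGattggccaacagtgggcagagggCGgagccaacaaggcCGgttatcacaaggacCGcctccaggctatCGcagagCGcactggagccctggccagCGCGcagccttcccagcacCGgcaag
Kcnmb2 promoter (chr3:31902453-31902752, + strand): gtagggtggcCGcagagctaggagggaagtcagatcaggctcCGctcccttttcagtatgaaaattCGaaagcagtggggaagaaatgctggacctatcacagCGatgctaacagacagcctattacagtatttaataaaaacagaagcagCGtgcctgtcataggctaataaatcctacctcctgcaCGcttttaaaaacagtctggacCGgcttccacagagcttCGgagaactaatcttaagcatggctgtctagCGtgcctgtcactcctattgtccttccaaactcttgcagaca

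The Kcnma1 window held 36 CG dinucleotides and that of Kcnj2 18, against 9 each in Kcne4 and Kcnmb2, so Kcne4 and Kcnma1, which both rose at every step, differed in CG content. RefSeq windows of this length were found for 66 of the 91 members (91 windows, several genes having more than 1 start). Their median was 9 CG dinucleotides (quartiles 5 and 21), beside 7 (quartiles 3 and 20) over all 32851 windows of the table. The motif GGGCGG, on either strand, was in 48.4% of members' windows and 35.7% of all windows. TATAAA was in 5.49% and 13.6%, and CCAAT in 30.8% and 37.4%. Of the 4 windows shown, those of Kcnma1 and Kcnj2 held GGGCGG, that of Kcnj2 held CCAAT and none held TATAAA. These are letter matches only.

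Libraries held 28.3e6 to 33.9e6 counts in genes. Levels are given as CPM, counts per 1e6 counts in genes, with SD over 3 libraries. Changes come from edgeR's quasi-likelihood test over all 12 libraries and the 18365 genes that passed a filter on low counts, with Benjamini-Hochberg adjustment over those genes and a threshold of 0.05. The mesenchymal markers of the labelled tissue (10 of 10 tested, among them Prrx1, Twist1 and Alx4) summed to 1262 to 1755 CPM at E10.5 and 2198 to 2347 CPM at E11.5. At E12.5 their sum was 1578 to 1982 CPM and at E14.5 1452 to 1546 CPM. Of them 6 rose and 1 fell at E11.5, 2 rose and 5 fell at E12.5, and 2 rose and 6 fell at E14.5 against E12.5. From E10.5 to E14.5, 1 of them rose and 8 fell. Alignments outside any gene made up 1.92% to 4.88% at E10.5, at most 2.42% at E11.5, and at least 5.03% and 5.78% in the libraries of E12.5 and E14.5.

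Potassium channel transcripts were more abundant at later stages, and more of the genes were detected from E12.5 on. Summed over the 91 members they made up 156 to 173 CPM at E10.5, 189.9 to 212 at E11.5, between 247 and 313 at E12.5, and between 346 and 397 at E14.5, with no overlap between stages. In whole tissue, more cells of a type and more RNA per cell cannot be told apart. Kcnj2 alone gave 10.8 to 19.8% of that sum at E10.5, 30.3 to 32.1% at E11.5, between 15.1 and 24.1% at E12.5, and between 5.08 and 7.28% at E14.5. Without it the sum was 131 to 148 CPM at E11.5, against 133 to 154 at E10.5, so that these stages then overlapped. The number of members at 1 CPM or more was 31 to 40 at E10.5, 30 to 37 at E11.5, between 45 and 56 at E12.5, and between 57 and 64 at E14.5. Members with any count numbered 81 to 84, 77 to 82, 85 to 87 and 85 to 88 in the same order. Over all genes, those with any count numbered 22790 to 25275, 22633 to 23192, 25265 to 26712 and 26097 to 26914. Detection thus widened over all genes too, though E10.5 replicate 3 reached the level of E12.5 replicate 1. The heat map of tested members and the plot of summed levels show the course library by library.

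**Figure D1:**
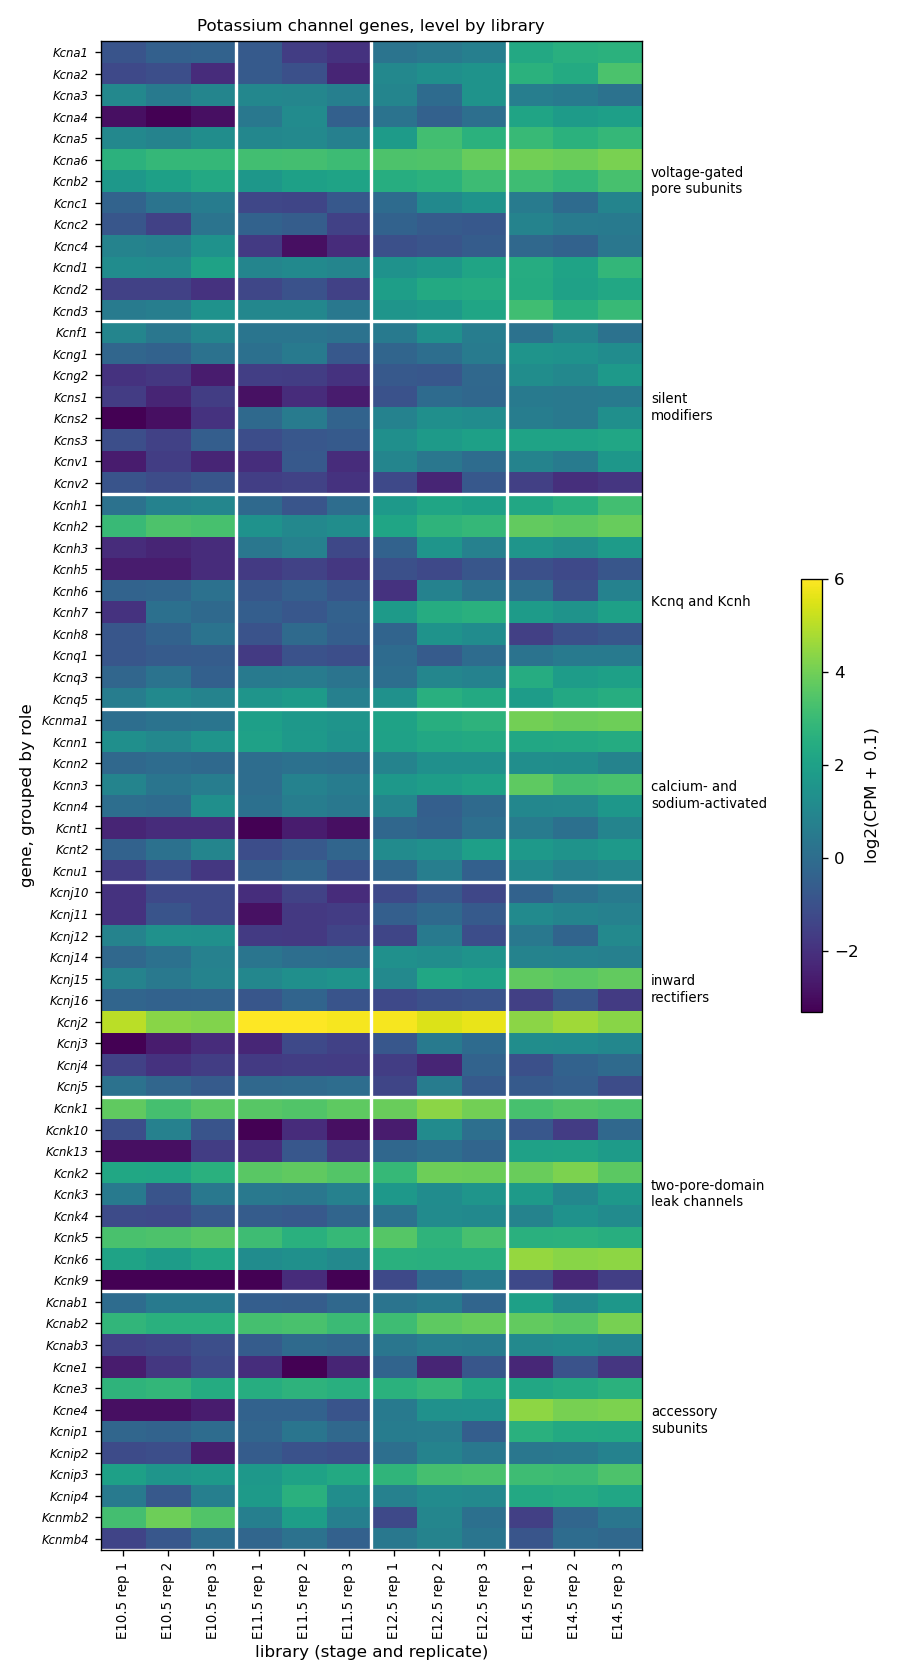
Level of each of 70 tested potassium channel genes (rows, grouped by role) in the 12 libraries (columns, by stage), as log2(CPM + 0.1). Kcnj2 is the brightest row at E11.5 and E12.5, and most other rows brighten towards E14.5.

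Of the 91 members 74 passed the filter, which keeps genes with about 10 counts or more in at least 3 libraries of any stage, and 62 of these differed among the 4 stages (83.8%, beside 81.6% of all genes tested). A gene that passed through the libraries of 1 stage alone was bound to vary, so the counts describe the 74 beside all genes under the same filter. The highest mean lay at E14.5 in 51 members (68.9%, against 47.3% of all genes), at E12.5 in 14 (18.9%, against 22.3%), and at E10.5 in 7 (9.46%, against 18.7%). It lay at E11.5 in 2, Kcnj2 and Kcnj5 (2.7%, against 11.7%). Over the 3 steps, 38 members rose at 1 step or more and fell at none (51.4%, against 32% of all genes). Another 5 only fell (6.76%, against 30.2%), namely Kcnj12, Kcnk1, Kcnk5, Kcnmb2 and Kcnmb4, and 13 moved both ways (17.6%, against 14.1%). Kcne4 and Kcnma1 rose at all 3 steps (2.7%, against 1.74%), and no member fell at all 3, where 1.38% of all genes did. These shares were set beside all genes only. They were not computed for scarce genes apart, to which most members belong, so the part of level in these differences was not tested.

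By step, 10 members rose and 10 fell at E11.5 against E10.5, where 12.2% and 12.9% of all genes did, so the members' shares of 13.5% each way lay close to the background. At E12.5 against E11.5, 36 rose (48.6%, background 27.1%) and 1, Kcnip4, fell (1.35%, background 22.2%). At E14.5 against E12.5, 24 rose (32.4%, background 23%) and 8 fell (10.8%, background 24%). Over the whole course, E14.5 against E10.5, 48 rose (64.9%, background 36.6%) and 8 fell (10.8%, background 33.8%). Most members are scarce, 69 of the 74 having a mean under 10 CPM over all libraries, and scarce genes as a whole leaned the same way. Of all tested genes under that level, 36.9% rose and 5.92% fell at E12.5, and 46.1% rose and 14.6% fell over the whole course. At E14.5 against E12.5, 25.2% of them rose and 13.3% fell, so the members' 10.8% of falls there lay near the share of scarce genes. The median log2 fold change of the 74 at E12.5 against E11.5 was 0.80, beside 0.06 over all genes and 0.59 over genes under 10 CPM. Over the whole course it was 1.26, beside 0.06 and 0.69.

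The step to E12.5 coincided with the change in alignments outside genes, and stage and that share cannot be told apart there. With the share as a covariate 4 members were higher at E12.5 (Kcna2, Kcnd2, Kcnip2 and Kcnk6) and none lower, where 2.22% and 1.56% of all genes were called. Over the whole course, 25 were then higher and 3 lower (Kcnc4, Kcnk5 and Kcnmb2), beside 19.5% and 21.3% of all genes. At E14.5 against E12.5 the covariate left 20 higher and 8 lower, beside 20.3% and 22% of all genes. The numbers of falls depended on single libraries. At E11.5 they were 5, 6 and 5 without E10.5 replicate 2, E10.5 replicate 3 or E11.5 replicate 2, and at E14.5 against E12.5 they were 4 without E14.5 replicate 1 or without E14.5 replicate 2.

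**Figure D2:**
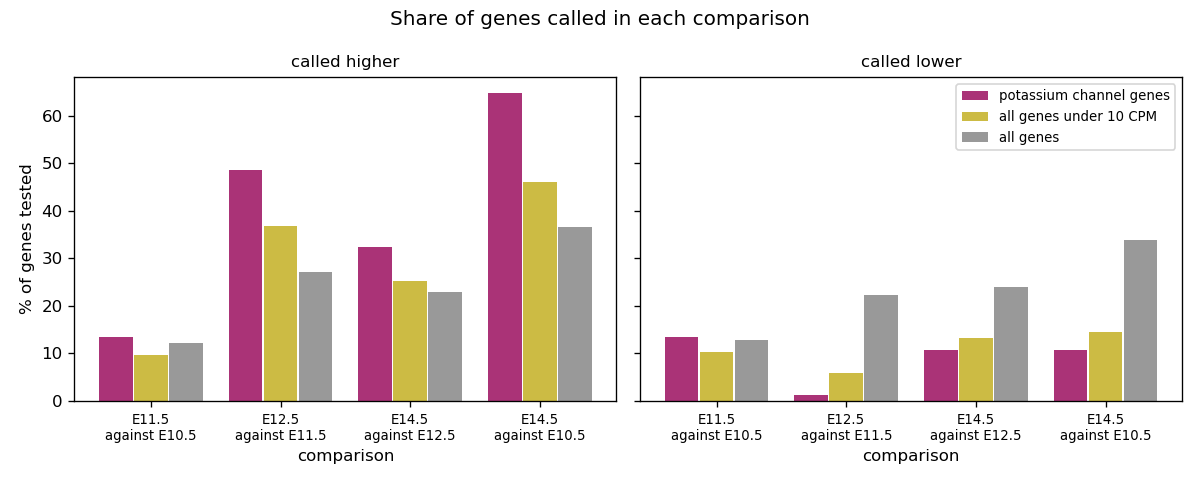
Share of tested genes called higher (left) or lower (right) in each comparison, as bars from 0, for the 74 tested potassium channel genes, for all tested genes with a mean under 10 CPM and for all tested genes. At E12.5 against E11.5 the bars for higher genes stand at 48.6%, 36.9% and 27.1%.

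Among inward rectifiers, Kcnj2 had its highest levels in mid-course. It encodes a strong rectifier that holds cells near the potassium potential, and lies on mm10 chromosome 11 (111066164 to 111076821, + strand). Kcnj2 measured 32.8, 20.2 and 18.6 CPM at E10.5, 63.9, 64.3 and 59.0 CPM at E11.5, 59.5, 46.0 and 51.6 CPM at E12.5 and 20.9, 25.2 and 20.2 CPM at E14.5. The E11.5 and E12.5 libraries all lay above those of E10.5 and E14.5, and E10.5 replicate 1 stood above its 2 fellows. Kcnj2 rose by 1.35 log2 units (SE 0.19, adjusted p = 0.000199) at E11.5 against E10.5 and fell by 1.32 log2 units (SE 0.19, adjusted p = 0.000102) at E14.5 against E12.5. Its levels at E14.5 and E10.5 overlapped (log2 fold change -0.44, SE 0.19, adjusted p = 0.0539). The sum of the mesenchymal markers was also highest at E11.5, and the part of mesenchyme in the course of Kcnj2 was not tested. Summed over the 14 inward rectifiers, the level was 31.2 ± 7.06, 68.4 ± 2.76, 62.7 ± 3.84 and 44.8 ± 1.81 CPM from E10.5 to E14.5.

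Other inward rectifiers rose late. Kcnj15, a rectifier known from kidney and pancreas, measured 1.72, 1.26 and 1.73 CPM at E10.5, 1.87, 2.43 and 2.68 CPM at E11.5, 2.01, 4.65 and 4.06 CPM at E12.5 and 13.0, 12.1 and 13.6 CPM at E14.5. The E14.5 libraries stood apart from the other 9, and the step from E12.5 was 1.78 (SE 0.24, adjusted p = 6.89e-05). Kcnj3, a subunit of G protein-gated channels of heart and neurons, was at 2.29, 2.23 and 1.92 CPM at E14.5, against 0, 0.0630 and 0.126 CPM at E10.5 (log2 fold change 4.70, SE 0.61, adjusted p = 1.09e-05). Its earlier stage held only 6 counts in all, so the size of this change is loosely set. Kcnj12, a close relative of Kcnj2, ran the other way at the first step. It measured 0.197, 0.191 and 0.280 CPM at E11.5, against 1.69, 2.55 and 2.48 CPM at E10.5 (log2 fold change -3.34, SE 0.57, adjusted p = 0.000805), with E12.5 libraries at 0.287, 1.31 and 0.363 CPM and E14.5 libraries at 1.25, 0.707 and 1.97 CPM. Over the role, 10 of 14 members were tested. At E11.5, 1 rose and 1 fell, and at E12.5, 3 rose, a share near the 27.1% of all genes. At E14.5 against E12.5, 4 rose and 2 fell (Kcnj2 and Kcnj14), where 23% and 24% of all genes did. The step calls of Kcnj3 at E12.5 and at E14.5 against E12.5 did not pass without E11.5 replicate 1 or E12.5 replicate 2 (adjusted p = 0.0588 to 0.0652) and without E12.5 replicates 1 or 3 or E14.5 replicates 1, 2 or 3 (adjusted p = 0.058 to 0.122), and with the covariate neither step passed (adjusted p = 0.866, with the sign turned, and 0.341), nor did its overall rise (adjusted p = 0.0558).

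**Figure D3:**
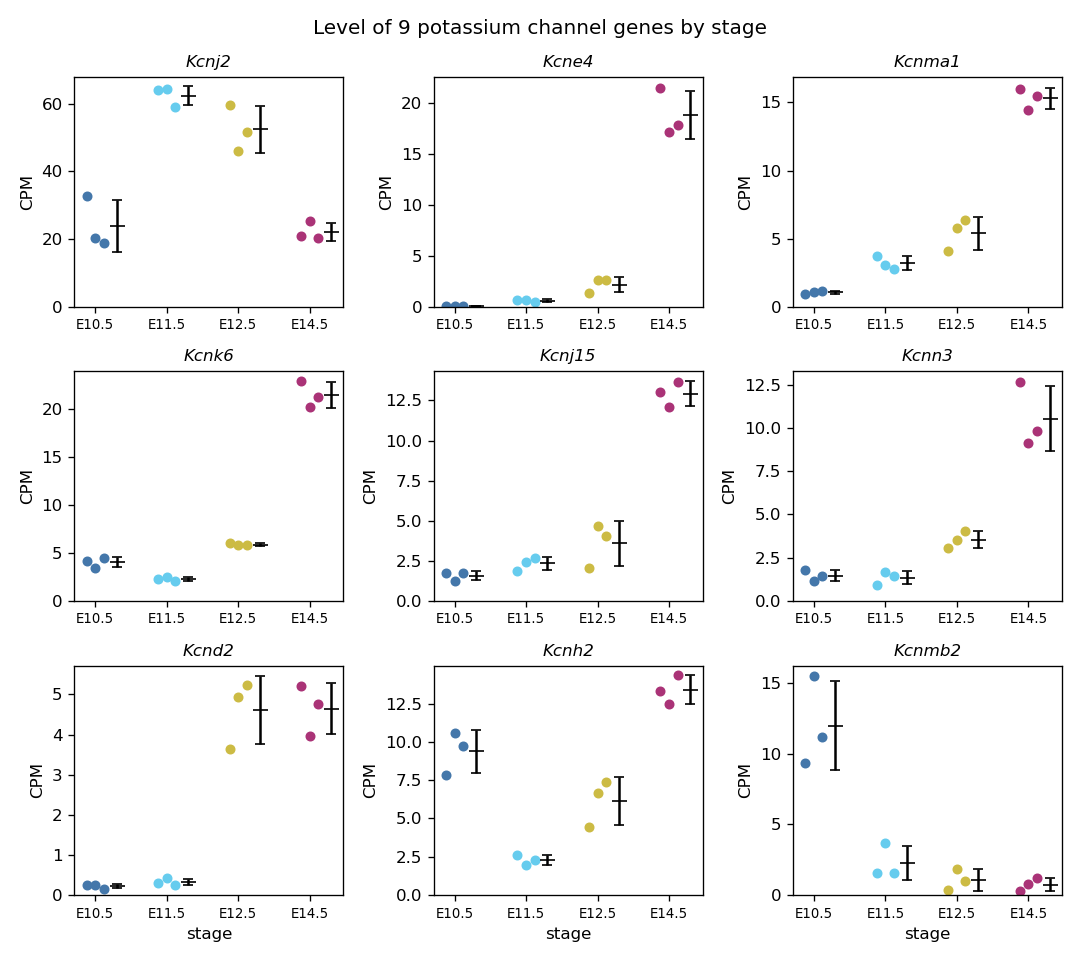
CPM of 9 potassium channel genes in each library (coloured points, by stage), with the mean and SD over 3 libraries as black bars. Kcnj2 is highest at E11.5 (62.4 ± 2.95 CPM) and Kcnmb2 at E10.5 (12.0 ± 3.16 CPM), while Kcne4 and Kcnma1 are highest at E14.5 (18.8 ± 2.33 and 15.3 ± 0.786 CPM).

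Leak channels moved in different directions. Kcnk6, a TWIK-type leak channel, was lowest at E11.5 and highest at E14.5, with 4.13, 3.43 and 4.49 CPM at E10.5, 2.23, 2.49 and 2.02 CPM at E11.5, 5.97, 5.77 and 5.77 CPM at E12.5 and 22.8, 20.2 and 21.2 CPM at E14.5. Its 3 libraries at each stage kept clear of those of the stages beside it. Kcnk6 fell by 0.87 log2 units (SE 0.14, adjusted p = 0.000478) at E11.5, rose by 1.16 log2 units (SE 0.13, adjusted p = 3.4e-05) at E12.5 and rose by 1.79 log2 units (SE 0.13, adjusted p = 2.98e-07) at E14.5, and the rise at E12.5 was among the 4 that also passed with the covariate. Kcnk2, a TREK-type channel opened by membrane stretch, measured 12.1, 13.0 and 11.4 CPM at E11.5, against 4.60, 4.47 and 6.00 CPM at E10.5 (log2 fold change 1.25, SE 0.22, adjusted p = 0.00115), and stayed at 7.51, 15.4 and 14.9 CPM at E12.5 and 14.6, 17.8 and 12.5 CPM at E14.5. Neither later step passed, and E12.5 replicate 1 lay below the other libraries of its stage. Kcnk5, a TASK-type channel opened by alkaline conditions, measured 10.1, 10.4 and 11.9 CPM at E10.5, 8.48, 5.97 and 7.45 CPM at E11.5, 11.7, 6.57 and 9.76 CPM at E12.5 and 6.04, 6.11 and 5.69 CPM at E14.5. It fell by 1.18 log2 units (SE 0.19, adjusted p = 0.000101) at E14.5 against E10.5. Its drop at E11.5 (log2 fold change -0.59, SE 0.19, adjusted p = 0.0363) did not pass with the covariate (adjusted p = 0.0567), nor without E10.5 replicates 1, 2 or 3, E11.5 replicates 2 or 3, E12.5 replicate 3 or E14.5 replicates 1 or 3 (adjusted p = 0.0504 to 0.151).

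Kcnk1, a weakly conducting TWIK-type channel, had its maximum at E12.5, with 13.3, 9.35 and 12.1 CPM at E10.5, 11.9, 11.1 and 12.7 CPM at E11.5, 14.8, 20.8 and 16.3 CPM at E12.5 and 9.75, 11.1 and 10.1 CPM at E14.5. It fell by 0.82 log2 units (SE 0.15, adjusted p = 0.000623) at E14.5 against E12.5, and the E14.5 libraries all lay below those of E12.5. Kcnk13, a THIK-type channel best known from microglia, measured 3.96, 4.03 and 3.39 CPM at E14.5, against 0.0313, 0.0315 and 0.220 CPM at E10.5 (log2 fold change 4.97, SE 0.53, adjusted p = 1.77e-06). Of 7 leukocyte markers 6 rose and none fell in the same comparison, and they summed to 209 to 260.0 CPM at E14.5, against 60.5 to 80.4 CPM at E10.5. Their part in the change of Kcnk13 was not tested. Kcnk10, a TREK-type channel, was unevenly spread, with 0.375, 1.61 and 0.439 CPM at E10.5, 0, 0.128 and 0.0312 CPM at E11.5, 0.0639, 2.18 and 0.956 CPM at E12.5 and 0.486, 0.212 and 0.795 CPM at E14.5. Replicate 2 was the highest library at E10.5 and at E12.5, and the neuronal marker list was highest in the same libraries (955 and 437 CPM). Its calls at E11.5 and E12.5 did not pass with limma-voom (adjusted p = 0.104 and 0.1), nor the second with the covariate (adjusted p = 0.139). Removing E10.5 replicate 2 or E11.5 replicates 1, 2 or 3 ended the first call (adjusted p = 0.0512 to 0.134) and removing E11.5 replicates 1 or 3 or E12.5 replicate 2 the other (adjusted p = 0.0523 to 0.0771). Of the 14 leak channels 9 were tested. At E11.5, 1 rose and 3 fell, against 12.2% and 12.9% of all genes. At E12.5, 5 rose and none fell, against 27.1% and 22.2%, and at E14.5 against E12.5, 2 rose, about the 23% of all genes, and 3 fell, where 24% of all genes did.

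Voltage-gated pore subunits gained mainly from E12.5 on, with a summed level of 29.7 ± 5.26 CPM at E10.5, 32.1 ± 1.35 at E11.5, 63.6 ± 13.2 at E12.5 and 88.8 ± 11.5 at E14.5 over 17 genes. Of 15 tested, 10 rose at E12.5 and none fell, where 27.1% of all genes and 36.9% of genes under 10 CPM rose. The 2 rises and 2 falls at E11.5 lay near the 12.2% and 12.9% of all genes. At E14.5 against E12.5, 7 rose and 1 fell, against 23% and 24% of all genes and 25.2% and 13.3% of genes under 10 CPM. Kcnd2, a subunit of the rapidly inactivating current, was at 3.64, 4.94 and 5.24 CPM at E12.5, against 0.296, 0.415 and 0.249 CPM at E11.5 (log2 fold change 3.61, SE 0.27, adjusted p = 1.22e-06), and at 5.20, 3.96 and 4.77 CPM at E14.5. The E12.5 libraries lay clear of those of E11.5, and the call passed under every alternative tried. Its relatives Kcnd1 and Kcnd3 had smaller changes. Kcnd3 measured 8.67, 5.62 and 7.66 CPM at E14.5, against 2.81, 3.14 and 4.42 CPM at E12.5 (log2 fold change 1.01, SE 0.25, adjusted p = 0.00508). For Kcnd1 the values were 5.38, 4.21 and 7.16 CPM at E14.5, against 2.59, 3.08 and 4.25 CPM at E12.5 (log2 fold change 0.69, SE 0.25, adjusted p = 0.0372), where the lowest E14.5 library lay under the highest of E12.5. That call ended with the covariate (adjusted p = 0.103) and without E12.5 replicates 1 or 2 or E14.5 replicates 1 or 3 (adjusted p = 0.068 to 0.173).

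Among the Shaker-type genes, Kcna6 measured 6.28, 7.24 and 7.28 CPM at E10.5, 8.97, 9.32 and 8.41 CPM at E11.5, 10.4, 10.8 and 14.3 CPM at E12.5 and 16.2, 14.8 and 17.3 CPM at E14.5. It rose by 0.89 log2 units (SE 0.12, adjusted p = 1.95e-05) at E14.5 against E10.5, with no overlap between these stages. Kcna2 and Kcna1, subunits that sit along myelinated axons in the adult, both rose at E12.5 and again at E14.5. Kcna2 measured 0.313, 0.378 and 0.126 CPM at E10.5, 0.526, 0.383 and 0.0935 CPM at E11.5, 1.95, 2.40 and 2.64 CPM at E12.5 and 6.07, 5.09 and 10.3 CPM at E14.5. Kcna1 was at 4.86, 5.87 and 6.16 CPM at E14.5, against 0.438, 0.630 and 0.659 CPM at E10.5 (log2 fold change 2.96, SE 0.32, adjusted p = 1.9e-06), and for Kcna2 the same comparison gave 4.36 (SE 0.47, adjusted p = 1.93e-06). Kcna5, a subunit of heart and smooth muscle, measured 1.94, 1.70 and 2.26 CPM at E10.5, 1.87, 2.01 and 1.59 CPM at E11.5, 3.42, 8.88 and 6.20 CPM at E12.5 and 7.77, 6.15 and 7.28 CPM at E14.5. It rose by 1.54 log2 units (SE 0.28, adjusted p = 0.000665) at E12.5 against E11.5 and passed at neither other step. Kcna4, which inactivates rapidly, had 2 counts over the E10.5 libraries, 125 over those of E11.5 and 345 over those of E14.5. The ratio of E11.5 to E10.5 was 63.7 (95% exact interval 17.3 to 531), and its adjusted p was 4.19e-05. Its levels were 1.25, 2.14 and 0.623 CPM at E11.5, 1.09, 0.641 and 0.956 CPM at E12.5 and 4.30, 3.36 and 3.71 CPM at E14.5.

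Kcnc4, a Shaw-type subunit, a type known for rapid firing, measured 1.69, 1.57 and 2.64 CPM at E10.5, 0.197, 0.0319 and 0.125 CPM at E11.5, 0.383, 0.449 and 0.560 CPM at E12.5 and 0.798, 0.672 and 1.21 CPM at E14.5. All later libraries lay below all E10.5 libraries, and Kcnc4 fell by 4.05 log2 units (SE 0.44, adjusted p = 2.33e-05) at E11.5 against E10.5. Kcnb2, a delayed rectifier, was at 8.47, 7.07 and 9.60 CPM at E14.5, against 3.06, 3.81 and 4.80 CPM at E10.5 (log2 fold change 0.79, SE 0.20, adjusted p = 0.00268). With the covariate, the E12.5 steps of Kcna1, Kcna5, Kcnb2, Kcnc4 and Kcnd3 did not pass (adjusted p = 0.119 to 0.987), nor did the overall rises of Kcna5, Kcnb2, Kcnd1 and Kcnd3.

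Electrically silent subunits, which carry no current alone and alter delayed rectifiers, stayed scarce. Their 10 genes summed to 3.99 ± 0.829 CPM at E10.5, 4.44 ± 1.20 at E11.5, 11.1 ± 1.60 at E12.5 and 16.1 ± 1.79 at E14.5. Of 8 tested, 1 rose at E11.5 (Kcns2), 4 rose at E12.5 (Kcng2, Kcns1, Kcns3 and Kcnv1) and 2 at E14.5 against E12.5 (Kcng1 and Kcng2), and none fell at a step. The shares at E11.5 and at E14.5 against E12.5 were near those of all genes that rose, 12.2% and 23%, and at E12.5 27.1% of all genes and 36.9% of those under 10 CPM rose. Kcns3, one of those that rose at E12.5, measured 0.375, 0.252 and 0.596 CPM at E10.5, 0.361, 0.479 and 0.530 CPM at E11.5, 2.43, 3.27 and 3.82 CPM at E12.5 and 4.20, 4.14 and 4.48 CPM at E14.5. Its E12.5 and E14.5 libraries lay clear of the earlier ones.

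In the Kcnq and Kcnh branches, Kcnh2 stood out for a dip at E11.5. It encodes the channel that ends the heart's action potential, and measured 7.85, 10.6 and 9.76 CPM at E10.5, 2.60, 1.95 and 2.27 CPM at E11.5, 4.41, 6.67 and 7.38 CPM at E12.5 and 13.4, 12.5 and 14.4 CPM at E14.5. Every stage kept clear of its neighbours. Kcnh2 fell by 2.08 log2 units (SE 0.19, adjusted p = 6.85e-06) at E11.5, then rose by 1.21 log2 units (SE 0.19, adjusted p = 0.000298) at E12.5 and rose by 1.06 log2 units (SE 0.18, adjusted p = 0.000375) at E14.5. The middle step did not pass with the covariate (adjusted p = 0.0584). Kcnh1, mutated in human syndromes with facial features, also had its lowest levels at E11.5, with 1.03, 1.64 and 1.85 CPM at E10.5, 0.821, 0.447 and 0.903 CPM at E11.5, 3.16, 4.33 and 3.82 CPM at E12.5 and 4.79, 5.97 and 9.04 CPM at E14.5. Over the whole course it rose by 1.81 log2 units (SE 0.30, adjusted p = 0.000106), while its drop at E11.5 did not pass with limma-voom (adjusted p = 0.0888), with the covariate (adjusted p = 0.0618) or without E10.5 replicates 2 or 3 or E11.5 replicates 1 or 2 (adjusted p = 0.0576 to 0.123). With the covariate its rises at E12.5 and at E14.5 against E12.5 did not pass (adjusted p = 0.0884 and 0.0891), nor did the last of these without E11.5 replicates 1 or 3, E12.5 replicates 1, 2 or 3 or E14.5 replicates 2 or 3 (adjusted p = 0.0506 to 0.232). Kcnh7 measured 3.32, 5.38 and 5.93 CPM at E12.5, against 0.591, 0.479 and 0.654 CPM at E11.5 (log2 fold change 2.85, SE 0.43, adjusted p = 0.0002). Kcnh3, a neuronal relative, was at 2.85, 2.33 and 3.42 CPM at E14.5, against 0.125, 0.0945 and 0.126 CPM at E10.5 (log2 fold change 4.27, SE 0.67, adjusted p = 5.82e-05), and its E11.5 libraries were spread at 1.18, 1.63 and 0.312 CPM. Kcnh8, whose E12.5 replicates 2 and 3 stood above all other libraries, was at 0.243, 0.389 and 0.471 CPM at E14.5, against 0.703, 2.69 and 2.21 CPM at E12.5 (log2 fold change -2.39, SE 0.49, adjusted p = 0.0013). With the covariate the adjusted p was 0.0958 for Kcnh7 and 0.0558 for Kcnh3, and the calls did not pass. Of the 13 genes of these branches 12 were tested. At E11.5, 1 rose and 2 fell, where 12.2% and 12.9% of all genes did. At E12.5, 5 rose (background 27.1%, or 36.9% of genes under 10 CPM). At E14.5 against E12.5, 3 rose, near the background of 23%, and 1 fell (background 24%, or 13.3% of genes under 10 CPM).

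The pore and a partner of the large-conductance (BK) channel moved in opposite directions over the whole course. Kcnma1, its pore subunit, opened by calcium and voltage together, rose at every step, with 0.938, 1.07 and 1.13 CPM at E10.5, 3.75, 3.03 and 2.77 CPM at E11.5, 4.06, 5.74 and 6.40 CPM at E12.5 and 16.0, 14.5 and 15.5 CPM at E14.5. The 3 libraries of each stage kept clear of those of the neighbouring stages. The steps were 1.57 (SE 0.19, adjusted p = 6.35e-05) at E11.5, 0.54 (SE 0.17, adjusted p = 0.0191) at E12.5 and 1.44 (SE 0.17, adjusted p = 1.81e-05) at E14.5, and the change over the whole course was 3.54 (SE 0.19, adjusted p = 3.99e-09). The middle step, the smallest, did not pass in a fit of the compared stages alone (adjusted p = 0.0622), nor with the covariate (0.501), nor without E11.5 replicates 2 or 3 or E12.5 replicates 2 or 3 (adjusted p = 0.0604 to 0.0877). Its accessory subunit Kcnmb2, which makes BK channels inactivate, went the opposite way, with 9.32, 15.5 and 11.1 CPM at E10.5, 1.54, 3.64 and 1.53 CPM at E11.5, 0.319, 1.83 and 0.989 CPM at E12.5 and 0.243, 0.742 and 1.18 CPM at E14.5. All E10.5 libraries lay above all later ones, and after E11.5 neither later step of Kcnmb2 passed. Kcnmb2 fell by 2.46 log2 units (SE 0.50, adjusted p = 0.00301) at E11.5 and fell by 4.36 log2 units (SE 0.57, adjusted p = 1.26e-05) at E14.5 against E10.5, and both passed under every alternative tried. Neuronal markers were summed beside it, and at every stage the replicate with the most Kcnmb2 also had the highest sum. The sums were 227, 170.1 and 426 CPM in the E14.5 libraries, against 537, 955 and 664 CPM in those of E10.5. The part of neurons in the fall of Kcnmb2 was not tested. Kcnmb4, a neuronal BK subunit, remained under 2 CPM in every library, and its drop at E14.5 against E12.5 (log2 fold change -1.01, SE 0.39, adjusted p = 0.0489) did not pass with DESeq2 (adjusted p = 0.057) or its size factors in edgeR (adjusted p = 0.0511), nor without E11.5 replicates 1, 2 or 3, E12.5 replicates 1 or 2 or E14.5 replicates 1, 2 or 3 (adjusted p = 0.0527 to 0.185). Kcnmb1, the BK subunit of smooth muscle, and Kcnmb3 did not pass the filter, at 20 and 6 counts over 12 libraries.

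Kcnn3, a small-conductance channel opened by calcium alone, had its highest levels at E14.5, with 1.75, 1.13 and 1.44 CPM at E10.5, 0.920, 1.66 and 1.40 CPM at E11.5, 3.07, 3.53 and 4.02 CPM at E12.5 and 12.7, 9.12 and 9.84 CPM at E14.5 (log2 fold change 1.50, SE 0.22, adjusted p = 0.000105 at E14.5 against E12.5). The E14.5 libraries stood above the rest. Over the 8 genes of this role, all tested, the summed level was 8.60 ± 1.78 CPM at E10.5, 11.1 ± 0.803 at E11.5, 21.3 ± 2.85 at E12.5 and 41.4 ± 3.24 at E14.5. Over the whole course, 7 rose and none fell, Kcnn4 being the exception, where 36.6% of all genes and 46.1% of genes under 10 CPM rose.

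Of the other accessory subunits, Kcne4 had the largest fitted rise of the 74 over the whole course, 8.37 (SE 0.37, adjusted p = 8.18e-10) in log2. It encodes a single-pass subunit that damps several voltage-gated channels, and measured 0.0313, 0.0315 and 0.0628 CPM at E10.5, 0.657, 0.670 and 0.436 CPM at E11.5, 1.31, 2.56 and 2.57 CPM at E12.5 and 21.4, 17.1 and 17.8 CPM at E14.5. Each stage kept clear of the next. The steps were 3.67 (SE 0.50, adjusted p = 0.000119) at E11.5, 1.64 (SE 0.27, adjusted p = 0.000333) at E12.5 and 3.06 (SE 0.23, adjusted p = 5.15e-07) at E14.5. The E10.5 libraries held 4 counts in all and those of E14.5 1706. The sizes of the E11.5 step and of the whole-course rise are therefore loosely set, and their SE may understate this. With the covariate the E12.5 step was -0.05 on the log2 scale (adjusted p = 0.964), opposite in sign, while the other 2 steps passed. Kcne3, a partner of Kcnq1 in epithelia, varied little, with 6.60, 7.12 and 5.24 CPM at E10.5, 5.59, 6.51 and 5.89 CPM at E11.5, 6.16, 7.40 and 4.85 CPM at E12.5 and 4.72, 5.20 and 6.13 CPM at E14.5, and did not pass the joint test. Its mean at E14.5, 5.35 ± 0.717 CPM, against 6.32 ± 0.968 CPM at E10.5, gave log2 fold change -0.57, SE 0.20, adjusted p = 0.0222, and the libraries overlapped. That call ended with the covariate (adjusted p = 0.977) and without E10.5 replicates 1 or 2 or E14.5 replicates 1 or 2 (adjusted p = 0.052 to 0.0876).

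Calcium-binding partners of the Kcnd channels gained at different times. Kcnip1 was at 5.97, 4.95 and 4.80 CPM at E14.5, against 1.41, 1.44 and 0.593 CPM at E12.5 (log2 fold change 2.09, SE 0.31, adjusted p = 0.000133). Kcnip3, which also acts as a transcriptional repressor, measured 6.74, 9.45 and 9.89 CPM at E12.5, against 3.06, 4.08 and 4.95 CPM at E11.5 (log2 fold change 0.89, SE 0.20, adjusted p = 0.00296). Kcnip4 moved up, down and up again, with 1.34, 0.504 and 1.54 CPM at E10.5, 3.25, 5.97 and 2.31 CPM at E11.5, 1.63, 2.18 and 2.01 CPM at E12.5 and 4.86, 5.27 and 4.45 CPM at E14.5. Its rise at E11.5 was 1.74 (SE 0.37, adjusted p = 0.00381) and its drop at E12.5 -1.20 (SE 0.36, adjusted p = 0.0138), which was lost without E11.5 replicate 2, its highest library at that stage (adjusted p = 0.0909). With the covariate neither that drop (adjusted p = 0.105) nor the rise of Kcnip3 (adjusted p = 0.235) passed. Kcnab2, a cytoplasmic subunit of Shaker-type channels, was at 13.4, 12.1 and 17.1 CPM at E14.5, against 6.97, 5.98 and 6.00 CPM at E10.5 (log2 fold change 0.84, SE 0.18, adjusted p = 0.000702). Of the 15 accessory genes 12 were tested. At E11.5, 3 rose and 1 fell, against 12.2% and 12.9% of all genes. At E12.5, 4 rose and 1 fell, where 27.1% of all genes and 36.9% of genes under 10 CPM rose. At E14.5 against E12.5, 4 rose and 1 fell, against 23% and 24% of all genes and 25.2% and 13.3% of genes under 10 CPM.

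**Figure D4:**
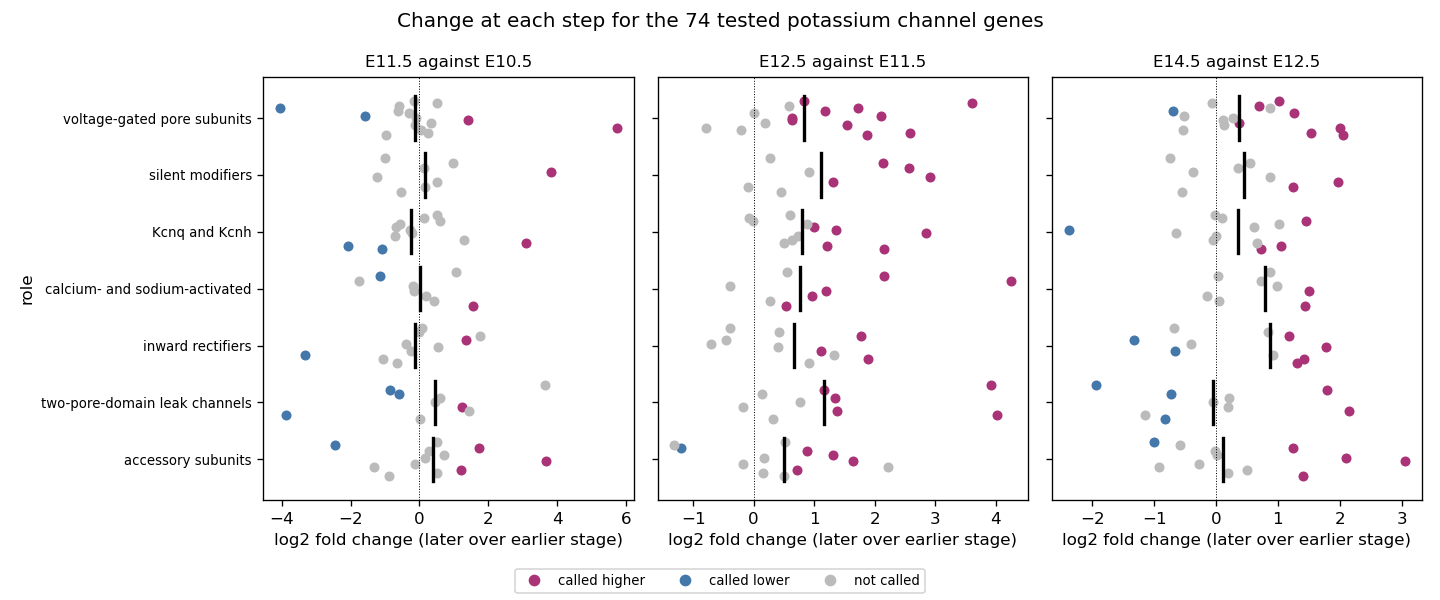
log2 fold change of the later over the earlier stage at each step for the 74 tested potassium channel genes (points), in rows by role, coloured by whether the gene was called higher, lower or neither, with the median of the role as a black line. At E12.5 against E11.5 the median of every role lies above 0, from 0.51 to 1.16, beside 0.59 over all tested genes under 10 CPM.

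Levels between genes were compared per kb of annotated exon, since longer transcripts collect more counts. On that scale Kcnk1 led at E10.5 with a mean of 5.17 CPM per kb (range 4.18 to 5.93), followed by Kcnj2 at 4.38 (3.42 to 6.02) and Kcnmb2 at 3.83 (2.98 to 4.94), and these ranges overlap. At E11.5 Kcnj2 led at 11.5 CPM per kb, clear of Kcnk1 at 5.33. At E12.5 Kcnj2 stood at 9.62 and Kcnk1 at 7.73, with overlapping ranges. At E14.5 Kcne4 led at 7.07 CPM per kb, above Kcnk6 at 5.15, Kcnk1 at 4.63 and Kcnj2 at 4.06; the ranges of Kcnk6 and Kcnk1, and of Kcnk1 and Kcnj2, overlapped.

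Other cell types of the dissected tissue changed over the same stages, as the plot of marker lists shows. Skeletal muscle markers (10 of 10 tested) summed to 26.6 to 36.5 CPM at E10.5, 25.0 to 36.4 CPM at E11.5, 169 to 354 CPM at E12.5 and 2095 to 2614 CPM at E14.5, with Ckm at 0 at E10.5 and E11.5. Bone markers (6 of 7 tested, all 6 called higher over the whole course) had the steepest rise of the lists, with sums of 38.6 to 55.7 CPM at E10.5, 275 to 349 CPM at E11.5, 413 to 787 CPM at E12.5 and 7775 to 9919.9 CPM at E14.5. Epithelial markers (7 of 7) summed to 1063 to 1557 CPM at E14.5, against 379.8 to 467 CPM at E10.5, with 3 called higher and 3 lower. Cartilage markers (7 of 7) summed to 531 to 1004 CPM at E14.5, 523 to 837 CPM at E12.5 and 194 to 262 CPM at E11.5, beside 508 to 753 CPM at E10.5. Melanocyte markers (4 of 4, all called higher) summed to 28.3 to 33.6 CPM at E14.5, against 2.29 to 6.32 CPM at E10.5. Pericyte and smooth muscle markers (6 of 8 tested) summed to 709 to 772 CPM at E14.5, against 179.9 to 276 CPM at E10.5, and endothelial markers (8 of 8) to 510.3 to 602 CPM, against 238 to 359.7 CPM. The endothelial sum dipped to 162 to 198 CPM at E11.5, where 6 of 8 fell and none rose. It was 312 to 440 CPM at E12.5, where 8 of 8 rose. Neuronal markers (12 of 12) ran the other way over the whole course. Their sum was 170.1 to 426 CPM at E14.5, against 537 to 955 CPM at E10.5, and 9 of 12 fell while 2 rose. At E11.5 the neuronal sum was 224 to 357 CPM, and 8 of the 12 markers fell while none rose. At E12.5 it was 147 to 437 CPM, and 4 of the 12 rose while 1 fell. At E14.5 against E12.5, 3 neuronal markers fell and none rose. Schwann cell markers (6 of 7 tested, Foxd3 at 0 in all stages) summed to 132 to 153 CPM at E14.5 and 113 to 229 CPM at E10.5. The part of any of these cell types in the members' changes was not tested.

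**Figure D5:**
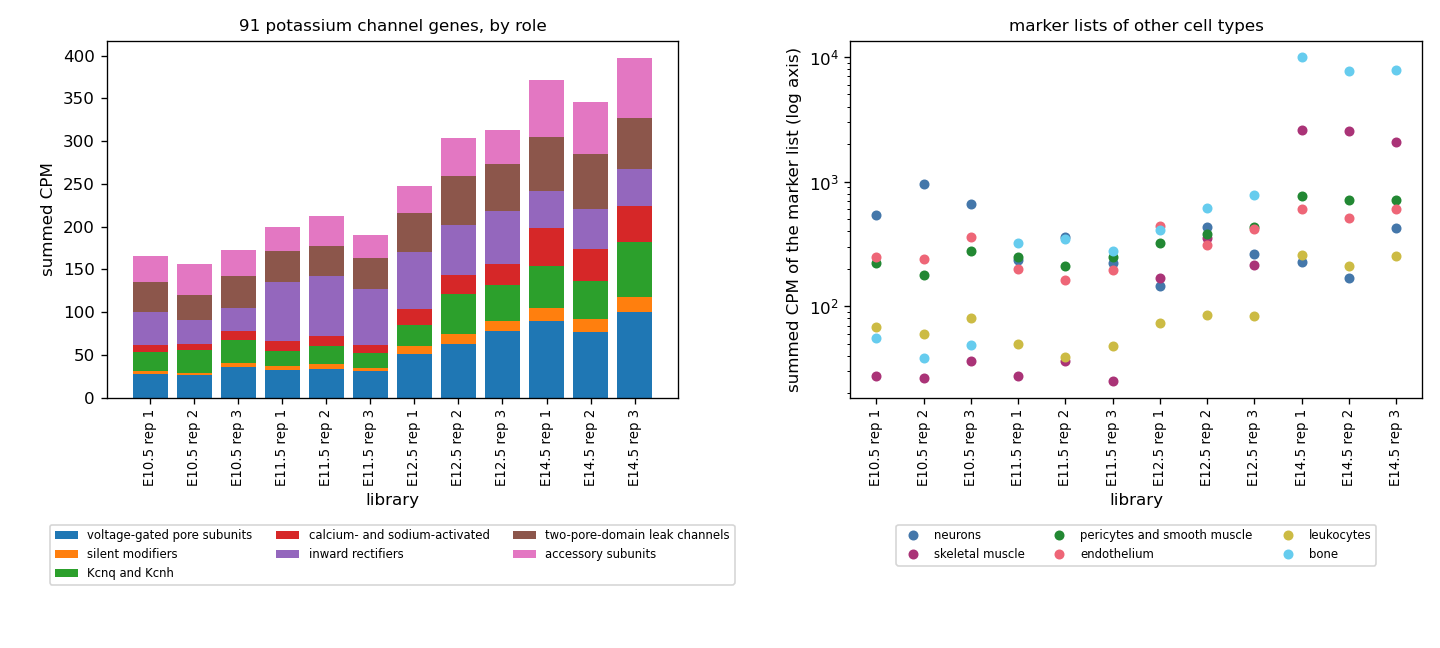
Left, summed CPM of the 91 potassium channel genes in each library, stacked by role from 0. Right, summed CPM of marker lists of 6 other cell types in the same libraries, on a log axis. The family's sum is highest at E14.5 (346 to 397 CPM), where markers of bone (7775 to 9919.9 CPM) and skeletal muscle (2095 to 2614 CPM) are also highest and neuronal markers are not.

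Genes that work with potassium channels were counted beside them from a list of 27, of which 25 were tested: sodium pump subunits, cation chloride cotransporters, sulfonylurea receptors, partners of BK, Kcnd and Kcnb channels, pacemaker channels and the 3 intracellular potassium channels Tmem175, Tmem38a and Tmem38b. At E11.5, 2 rose and 3 fell, at E12.5, 16 rose and none fell, and at E14.5 against E12.5, 11 rose and 1 fell, with backgrounds as given above. Over the whole course 19 rose, the 3 intracellular channels among them, and 2 fell, where 36.6% and 33.8% of all genes did. With the covariate 1 of the 25 was called at E12.5, near the background of that fit given above. Abcc9, the sulfonylurea receptor of vascular potassium channels gated by ATP, measured 9.04, 6.52 and 13.2 CPM at E10.5, 4.37, 3.38 and 4.92 CPM at E11.5, 12.9, 7.37 and 13.8 CPM at E12.5 and 48.4, 40.6 and 45.1 CPM at E14.5. It fell at E11.5 (log2 fold change -1.20, SE 0.24, adjusted p = 0.00282) and rose at E14.5 (log2 fold change 1.90, SE 0.23, adjusted p = 2.29e-05). The sodium pump, which builds the gradient that these channels use, had subunits moving in both directions. Atp1b1 was at 4.38, 16.8 and 13.3 CPM at E12.5, against 1.94, 2.43 and 1.78 CPM at E11.5 (log2 fold change 2.26, SE 0.40, adjusted p = 0.000565). The common subunit Atp1b3 measured 83.2, 81.9 and 84.8 CPM at E11.5, against 128, 133 and 132 CPM at E10.5 (log2 fold change -0.69, SE 0.08, adjusted p = 6.25e-05). Dpp10, a membrane partner of Kcnd channels, measured 1.57, 3.56 and 4.02 CPM at E12.5, against 0.197, 0.798 and 0.187 CPM at E11.5 (log2 fold change 2.71, SE 0.50, adjusted p = 0.00074), at the same step as Kcnd2. Slc12a7, a potassium chloride cotransporter, was the 1 gene that fell at E14.5 against E12.5, with 48.5, 43.9 and 44.8 CPM at E14.5, against 67.0, 68.9 and 86.9 CPM at E12.5 (log2 fold change -0.77, SE 0.09, adjusted p = 2.48e-05).

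Members that did not pass the joint test of the 4 stages or were barely detected complete the family. In that test 12 of the 74 did not pass, among them Kcna3, Kcne1, Kcne3, Kcnf1, Kcnh6, Kcnj4, Kcnj5, Kcnmb4, Kcnn4 and Kcnv2, and at this spread smaller changes may be missed. Of these, Kcnv2 and Kcne3 were called lower at E14.5 against E10.5 (Kcnv2 -1.46 (SE 0.49, adjusted p = 0.0157), Kcne3 as above) and Kcnmb4 lower at E14.5 against E12.5. Of the 17 members under the filter, 2 had no count in any library (Kcna10 and Kcnk15), and the others had 2 to 110 counts over the 12 libraries. The highest level among them was 1.79 CPM, of Kcnh4 in E12.5 replicate 2, against 0.128 and 0.297 CPM in replicates 1 and 3. Without a filter 89 members had a count, and 41 rose and 4 fell at E12.5 against E11.5, where 14.7% and 11.8% of all genes with a count did. That background covers 35021 genes, against 18365 with the filter, and many of those added are too scarce to be called. It is therefore lower than the filtered background and not a like measure for the members. The libraries do not mark strand, and 26 members have an exon that overlaps an exon of another gene on the opposite strand, so reads of such pairs could not be assigned by strand. Among genes described above these are Kcna6, Kcnd3, Kcne3, Kcnh3, Kcnh7, Kcnip4, Kcnj3, Kcnj15, Kcnk1, Kcnk2, Kcnma1 and Kcnmb4. Kcnab2 and Kcnk4 overlap another gene on their own strand.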

How the data were processed

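RNA of dissected maxillary prominences was selected for poly-A tails and prepared with the NEBNext Ultra RNA kit, per the labels' protocols, which keeps no strand. The deposited values are raw read counts, 1 per Ensembl gene, for 53801 genes in each of 12 libraries. FastQC, STAR 2.7.3a, HTSeq 0.12.4 and mm10 are named in the submitters' processing notes, and for the annotation release and the strand setting the sources used here give nothing. The 5 closing entries for alignments given to no gene (14.3% to 18.6% of listed alignments) entered neither library sizes nor tests. Symbols and coordinates came from GENCODE M21 for the same assembly, in which 53706 identifiers matched. Promoter windows came from RefSeq (GRCm38.p6).

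Counts were filtered (filterByExpr, minimum count 10), scaled by TMM and fitted in R 4.3.3 with edgeR 4.0.16, with 1 mean per stage over 12 libraries (8 residual degrees of freedom, biological coefficient of variation 0.142). SE is the absolute log2 change before edgeR's prior count, which damps changes of scarce genes, divided by the root of F. The log2 changes printed include that prior count, so at low counts the SE is not exactly theirs. CPM used unscaled library totals. The fit was tested on simulated data. Alternatives were DESeq2 1.42.0 and its size factors, limma-voom (limma 3.58.1), other filters, the compared stages alone, replicate number as a block, the percentage of alignments outside genes as covariate, and each library left out in turn. The members and lists were chosen with earlier results of these data known. Genes named are those with a mean of at least 5 CPM in a stage, or among the 4 largest called changes per direction and comparison with at least 1 CPM in the higher stage. A few of them are not reported here. Kcnmb1, Kcnmb3, Kcns3, Kcnh4 and genes named only within a count were added after their values were seen. The background of genes under 10 CPM was also added after the data were seen. No 2 libraries of a stage agreed within sampling noise (chi-square per degree of freedom at least 4.69). Intervals cover counting error only, because reads carry no molecular identifiers.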

Additional observations from a re-analysis of the deposited data

How the results depend on the processing

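Counts of potassium channel genes were recomputed under 20 alternatives. Except where given above, shares of all genes under the same setting do not stand beside them. The counts therefore show only how far each moved. With a covariate for alignments outside genes, 6 fell at E11.5 against E10.5, 4 rose and 0 fell at E12.5 against E11.5 (edgeR, where 17 and 2 had an unadjusted p under 0.05), 25 rose and 3 fell at E14.5 against E10.5, and 1 related gene was called at E12.5 against E11.5. With limma-voom 6 fell at E11.5. The single fall at E12.5 became 2 with DESeq2, with its size factors, with limma-voom or with the compared stages alone, 3 with the replicate block and 4 without a filter. Without a filter 13 fell over the whole course and 9 related genes were called at E11.5. The cause was not tested, except that the unfiltered fit tests more genes. Leaving out 1 library gave 10 to 13 rises and 5 to 11 falls at E11.5, and 29 to 40 and 1 to 3 at E12.5. It gave 20 to 27 and 4 to 10 at E14.5 against E12.5, and 47 to 51 and 6 to 12 over the whole course. Related genes called then numbered 4 to 7, 14 to 18, 10 to 14 and 19 to 21 in the same order. Members differing among stages numbered 63 to 69, against 62 in the main fit. Each of these fits applied the filter anew to the libraries kept, so the members tested could differ from the 74 of the main fit. Of 92 called changes of named genes, 70 passed under every alternative other than the covariate and 56 passed with it. With the covariate 4 changed sign, to log2 values of -0.062 for Kcnd1 over the whole course, and of -0.048 for Kcne4, -0.49 for Kcnj3 and -1.14 for Kcnk13 at E12.5.

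Deviations of same-numbered libraries of different stages correlated weakly (-0.119 to 0.177, 4 of 18 over 0.1). Of 12 libraries 6 correlated best with their own number, so this check cannot decide whether the numbers pair samples. With the replicate block 38 members rose at E12.5 and 48 over the whole course. DESeq2's size factors moved the median log2 change of all genes by -0.02 to 0.02. Depth limits members under about 1 CPM, whose changes rest on few counts.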
